A study of Saccharomyces cerevisiae with 5 samples.

Results

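The 56 genes described here encode the proteins of the small (40S) subunit of the cytoplasmic ribosome of budding yeast, Saccharomyces cerevisiae. They are all genes whose array name is RPS, a number and an optional A or B, and they make up 56 of the 6256 genes measured. All 56 names equal the current RefSeq symbols. Of the 56, 48 form 24 pairs of A and B copies, and 8 have no suffix. RNA from 5 samples of cells in mid-log growth at 30 °C in rich medium was labelled with Cy3 and hybridized, 1 sample per array, against Cy5-labelled genomic DNA of the same strain, given in the labels as Sigma 1287b, L5366. No gene was deleted and no treatment was applied, so the 5 arrays form 1 group and the comparisons are between genes within an array. By the slide and scan numbers in the labels, array 1 is the only array here from its slide, arrays 2 and 3 shared the second slide, and arrays 4 and 5 shared the third, which was scanned in another session. The study's methods speak of biological replicates, but the labels do not say which of the 5 RNA samples came from separate cultures, so the spread between arrays may in part be technical. The dyes were not swapped.

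The small subunit holds the messenger RNA and decodes it. Its proteins are placed around the 18S rRNA in a head, which includes the beak, and a body with a platform, and each ribosome carries 1 of each. In yeast most ribosomal proteins are encoded by a pair of genes left from an ancient duplication of the genome, whose copies differ little or not at all in protein sequence. The genes are transcribed by RNA polymerase II under the shared control of Rap1, Fhl1, Ifh1 and Sfp1, and they are known as the leading example of growth genes.

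The level of a gene is log2 of its Cy3 over its Cy5 signal, after subtraction of the local background, given relative to the median gene of the array. A level of 1 is therefore a ratio of RNA to genomic DNA 1 log2 unit above that of the median gene. Each gene had 1 probe, printed as 7 spots, and between 5 and 7 spots of each of the 56 genes were usable on each array. No spot of these genes was saturated, and both channels were well above background on all 5 arrays for all 56. The median of the 56 Cy3 intensities lay between 87789 and 113470 on the 5 arrays, and that of all genes between 1391 and 2028. Over the 56 genes, Pearson's r between arrays ranged from 0.975 to 0.991 (10 pairs of arrays, across genes, which are not replicates). The number of arrays limits the precision of every value.

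Small subunit genes stood near the top of the genome. Their median level was 4.89, with array medians of 4.95, 4.99, 4.96, 4.74 and 4.89, while the median gene stands at 0 by definition. Of the 56, 53 (94.6%) ranked above the 95th percentile of all genes and 21 (37.5%) above the 99th, where all genes hold 5.0% and 1.01%. This height depended on the signal scale. The median was 0.37 under loess and 0.64 with the scanner software's processed signals, where 7 of the 56 ranked above the 95th percentile in either case. The 76 large subunit genes (names of the form RPL) had a median of 4.96, and the mean over arrays of the within-array difference of medians, small minus large subunit, was -0.021 ± 0.04 (SD, n = 5). The sign of that difference was not the same on all arrays, with values from -0.086 on array 4 to 0.020 on array 2. Within the small subunit, the quartiles lay close together, at 4.60 and 5.33, and the full range was 1.66 to 6.09.

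**Figure D1:**
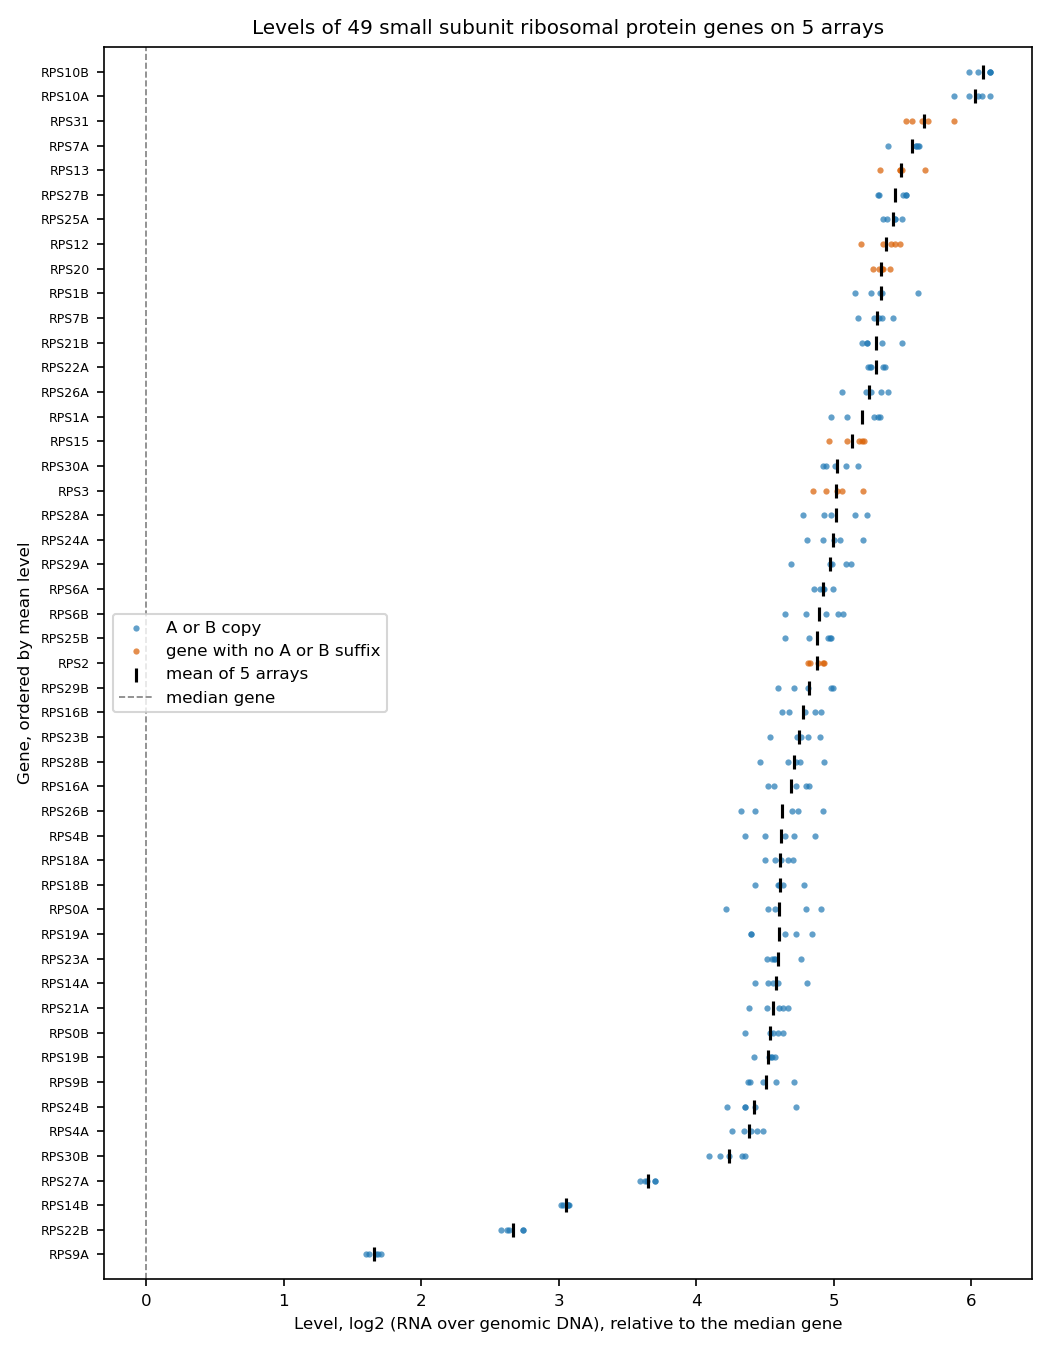
Level of each of 49 of the 56 genes (x axis, log2 of RNA over genomic DNA relative to the median gene) on each of 5 arrays (points) with the mean (tick), ordered by mean. Most genes form a continuous series between 4.24 and 6.09, and RPS27A, RPS14B, RPS22B and RPS9A lie apart below it.

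Genes for proteins of the head were among the highest, and the body or platform genes RPS7A, RPS13 and RPS27B took places 7, 8 and 10. RPS10B (YMR230W) and RPS10A (YOR293W), which encode a protein of the beak, led the list. RPS10B read 6.14, 6.14, 6.14, 6.05 and 5.98 on arrays 1 to 5. RPS10A read 5.88, 6.05, 6.08, 5.98 and 6.14, so the copies overlapped, and each was the higher one on some arrays. Quantile normalization gives the same value to the gene ranked first on every array, so repeated values at this end share a rank. RPS31 (YLR167W), whose product is made as a fusion with ubiquitin, read 5.64, 5.69, 5.88, 5.53 and 5.57. RPS10B had the lowest mean Cy5 intensity of the 56 genes (7519), and by the RNA signal alone it took place 45 of 56. RPS31 took place 1 by that measure. Along the whole list of 56, the ranges of neighbouring genes overlapped at 51 of 55 steps, and the remaining 4 steps were the last 4.

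The 8 genes without a suffix were all above the 95th percentile and none was below 4.88. After RPS31 came RPS13 at 5.49 ± 0.12 (SD, n = 5), which encodes an early binder of the 18S rRNA. RPS12 of the beak stood at 5.38 ± 0.11. RPS20, which encodes a head protein that the ligase Hel2 marks with ubiquitin on stalled ribosomes, stood at 5.35 ± 0.05. These genes overlapped with each other between arrays. RPS15, whose product reaches the decoding site and is needed for export of the subunit, stood at 5.13 ± 0.11. RPS3 and RPS2, which encode proteins at the entry of the mRNA channel, were lowest at 5.02 ± 0.14 and 4.88 ± 0.05. The median of the 8 was 5.36 and that of the 48 copies 4.80. The median of the 8 minus that of the copies, 0.57, turned to -0.11 under loess normalization and to -0.15 with the scanner software's processed signals.

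The 4 genes at the lower end were separated from the rest and from each other on every array. RPS27A (YKL156W) read between 3.59 and 3.70, RPS14B (YJL191W) between 3.01 and 3.08, RPS22B (YLR367W) between 2.58 and 2.74 and RPS9A (YPL081W) between 1.60 and 1.71. RPS30B (YOR182C), next above them, read between 4.10 and 4.36. All 5 are copies whose partner stood higher. RPS9A was the only one of the 56 below the 90th percentile. At percentile 82.3, or rank 1109 of 6256, it still read above most genes of the genome. RPS9A, RPS22B and RPS14B also took the last 3 places by the RNA signal alone, while under loess RPS9A took place 23 of 56 and with processed signals to place 21.

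The A and B copies were then compared within each array, which leaves out any shift of a whole array. The difference of each pair was tested against 0 with limma over all 61 pairs of array names that differ only in a final A or B, ribosomal or not, at a Benjamini-Hochberg adjusted p of 0.05. Of the 61, 24 were small subunit pairs and 33 large subunit pairs. The other 4 were RPP1 and RPP2 of the large subunit's stalk, COX5 and NHP6, so this background is almost wholly ribosomal. Of the 24 small subunit pairs, 16 passed, 10 with the A copy higher and 6 with the B copy higher. Among all 61 pairs 70.5% passed (45.9% with A higher and 24.6% with B higher), so the small subunit share of 66.7% lay close to that background. Of the 37 pairs outside the small subunit, 73% passed. The balance of directions turned with the scaling, to 8 calls with A higher and 11 with B higher under loess, and to 7 and 13 with processed signals. Of all 61 pairs, 45 and 51 were called in these settings. Their directions were not counted, so whether the turn is particular to the small subunit was not tested. The test covers the spread between arrays only. The 2 copies were read by different probes, and how far each probe also binds the RNA and DNA of the other copy was not tested. The median size of the difference was 0.24 log2 in the 24 pairs and 0.33 in all 61, and 4 of the 24 (16.7%) exceeded 1 log2, against 13.1% of all 61.

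**Figure D2:**
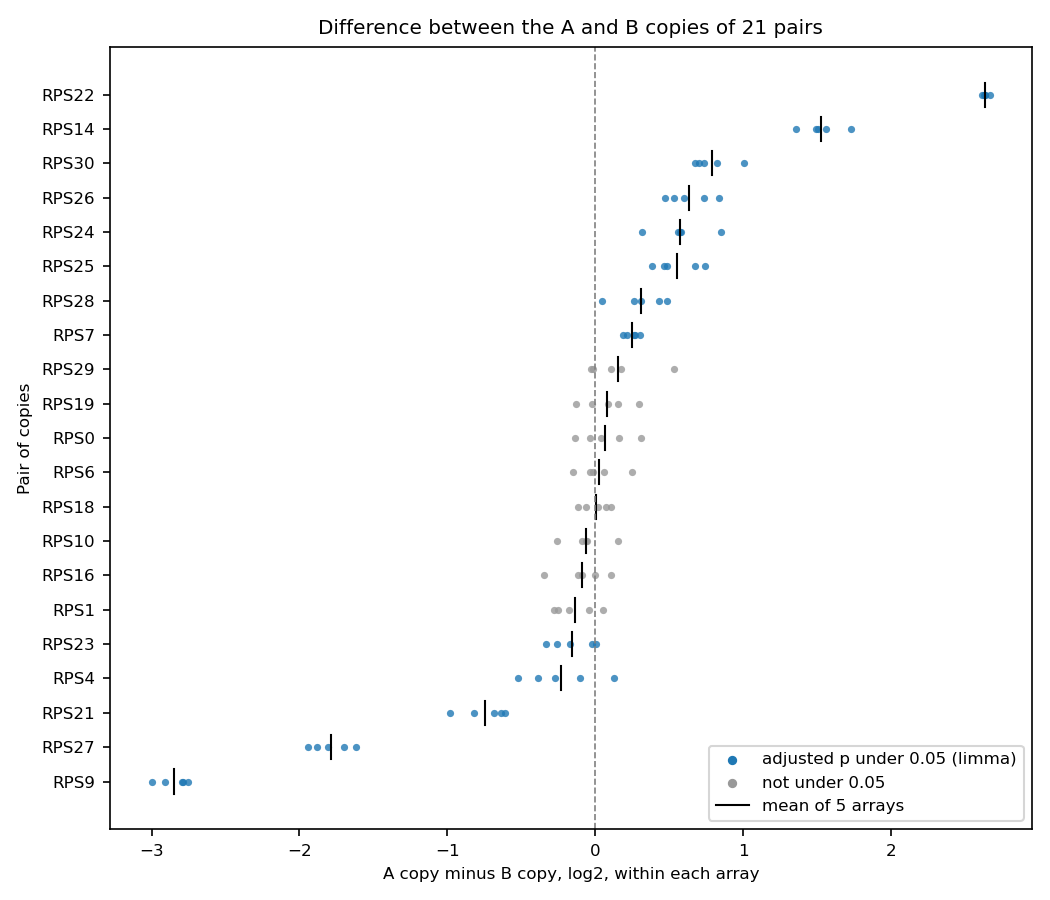
A copy minus B copy (x axis, log2) for 21 of the 24 pairs on each of 5 arrays (points), with the mean (tick) and colour for the limma call. RPS22 (2.64) and RPS14 (1.53) lie far to the A side, RPS27 (-1.79) and RPS9 (-2.85) far to the B side, and most other pairs lie near 0.

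The largest difference was that of RPS9, which encodes a protein at the mRNA entry of the body that affects the accuracy of decoding. RPS9A read 1.60, 1.67, 1.71, 1.62 and 1.69 on arrays 1 to 5. RPS9B (YBR189W) read 4.39, 4.58, 4.71, 4.38 and 4.48, so the copies lay far apart on every array. RPS9B exceeded RPS9A by 2.85 ± 0.10 log2 (SD, n = 5), a 7.21-fold ratio, with an adjusted p of 5.14e-11 in limma and p = 0.0625 in the exact two-sided sign-flip permutation test. That permutation p is the smallest that 5 arrays allow, and it held for all 12 of the 24 pairs with the same sign on 5 of 5 arrays. Among all 61 pairs, 38 had the same sign on every array.

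RPS22 encodes a core protein of the body that binds the central domain of the 18S rRNA. RPS22A (YJL190C) read 5.38, 5.26, 5.36, 5.25 and 5.27, and RPS22B read 2.74, 2.63, 2.74, 2.58 and 2.64. Here the A copy was the higher one, without overlap. The difference of 2.64 ± 0.02 log2 (SD, n = 5), a 6.23-fold ratio, varied less between arrays than that of any other small subunit pair (limma adjusted p = 3.22e-11). Both copies moved together from array to array.

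RPS27 encodes a zinc-binding protein of the platform. RPS27A read 3.59, 3.70, 3.64, 3.63 and 3.70, and RPS27B (YHR021C) read 5.53, 5.32, 5.53, 5.33 and 5.51. RPS27B, at place 10 in the order of levels, exceeded its partner on every array. The difference was 1.79 ± 0.13 log2 (SD, n = 5), or 3.46-fold, with a limma adjusted p of 4.67e-09.

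RPS14 encodes a platform protein near the exit of the mRNA channel. Its protein is known to bind the transcript of the B copy and to lower its amount, which these data do not test. RPS14A (YCR031C) read 4.80, 4.56, 4.59, 4.52 and 4.43. RPS14B read 3.08, 3.07, 3.03, 3.01 and 3.07, so the lower copy varied little and the higher copy carried the spread. The A copy was higher by 1.53 ± 0.13 log2 (SD, n = 5), or 2.89-fold, with a limma adjusted p of 1.75e-08.

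A group of 5 pairs differed by between 0.5 and 1 log2 with no overlap between the copies. RPS30, a small protein at the mRNA entry, had its A copy at 5.18, 4.94, 5.09, 4.92 and 5.01 and its B copy at 4.17, 4.24, 4.36, 4.10 and 4.33. The A copy was higher by 0.79 ± 0.13 log2 (SD, n = 5, limma adjusted p = 2.02e-06). RPS21, a protein of the body that lies beside Rps0, went the other way. RPS21A read 4.63, 4.51, 4.67, 4.38 and 4.60, and RPS21B read 5.24, 5.50, 5.35, 5.20 and 5.24, a difference of 0.75 ± 0.15 log2 in favour of B (limma adjusted p = 5.14e-06). In RPS26, RPS24 and RPS25 the A copy was higher, by 0.64 ± 0.15, 0.58 ± 0.19 and 0.55 ± 0.15. For RPS24, A minus B was 0.09 ± 0.17 in Cy3 and -0.51 ± 0.11 in Cy5, so its ratio differed mainly through the genomic DNA signal. The differences of RPS26 and RPS25 turned under loess, to -0.25 and -0.43, and with processed signals, to -0.19 and -0.46. Including the pairs over 1 log2, the copies of 9 of the 24 pairs (37.5%) had ranges that did not overlap, and among all 61 pairs 45.9% did.

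The other 15 pairs differed by 0.31 log2 or less, and the ranges of their copies overlapped or touched. Of these, 7 passed the test. Among them were RPS28 (0.31) and RPS7 (0.25) with A higher, and RPS4 (-0.23) and RPS23 (-0.16) with B higher. For RPS7 and RPS4 the RNA signal itself went the other way. A minus B was -0.28 ± 0.14 in Cy3 and -0.52 ± 0.09 in Cy5 for RPS7, and 0.12 ± 0.17 and 0.36 ± 0.13 for RPS4. Of the 16 calls 4, those of RPS4 and RPS23 among them, were lost when 1 array was left out, and the other 12 calls remained whichever array was left out. The 8 pairs that did not pass, with their mean A minus B, were RPS29 (0.16), RPS1 (-0.14), RPS16 (-0.09), RPS19 (0.08), RPS0 (0.07), RPS10 (-0.06), RPS6 (0.02) and RPS18 (0.00). RPS18, a head protein that touches the large subunit, differed by -0.11 to 0.11 on the 5 arrays. RPS6, the protein phosphorylated downstream of the growth kinase TORC1, differed by -0.15 to 0.25, and RPS10 by -0.26 to 0.15. RPS0, needed for maturation of the 18S rRNA, differed by -0.14 to 0.31. A p above the threshold does not show that these copies are equal.

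The difference between copies was next split into its channels. The RNA signal alone differed more than the ratio in 17 of the 24 pairs, and the genomic DNA signal differed in the same direction as the RNA signal in 19 of 24. Among all 61 pairs these counts were 45 and 51. In the 37 pairs outside the small subunit, mostly of large subunit genes, they were 28 and 32, so neither is particular to the small subunit. RPS9B exceeded RPS9A by 4.51 ± 0.14 log2 in Cy3 and by 1.65 ± 0.12 in Cy5 (SD, n = 5). RPS22A exceeded RPS22B by 3.47 ± 0.13 in Cy3 and by 0.84 ± 0.06 in Cy5, and RPS14A exceeded RPS14B by 2.75 ± 0.13 and 1.22 ± 0.04. RPS27 was different, with the B copy higher by 1.68 ± 0.15 in Cy3 and lower by 0.11 ± 0.05 in Cy5. Over the 24 pairs, Spearman's rho between the Cy3 and the Cy5 difference was 0.81, a description over probes of the same arrays. The Cy5 signal of the 56 genes was itself high, with a median 0.98 log2 above that of all genes. It was 1.28 above for the 8 genes without a suffix and 0.86 above for the 48 copies. Over the 56 genes, Spearman's rho between log2 Cy3 and log2 Cy5 was 0.71. RPS9A had a mean Cy5 intensity of 11679, RPS22B of 14023, RPS14B of 17934 and RPS27A of 25492, while the array medians over all genes ran from 11232 to 12915. What raises the Cy5 signal of the other genes was not tested.

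**Figure D3:**
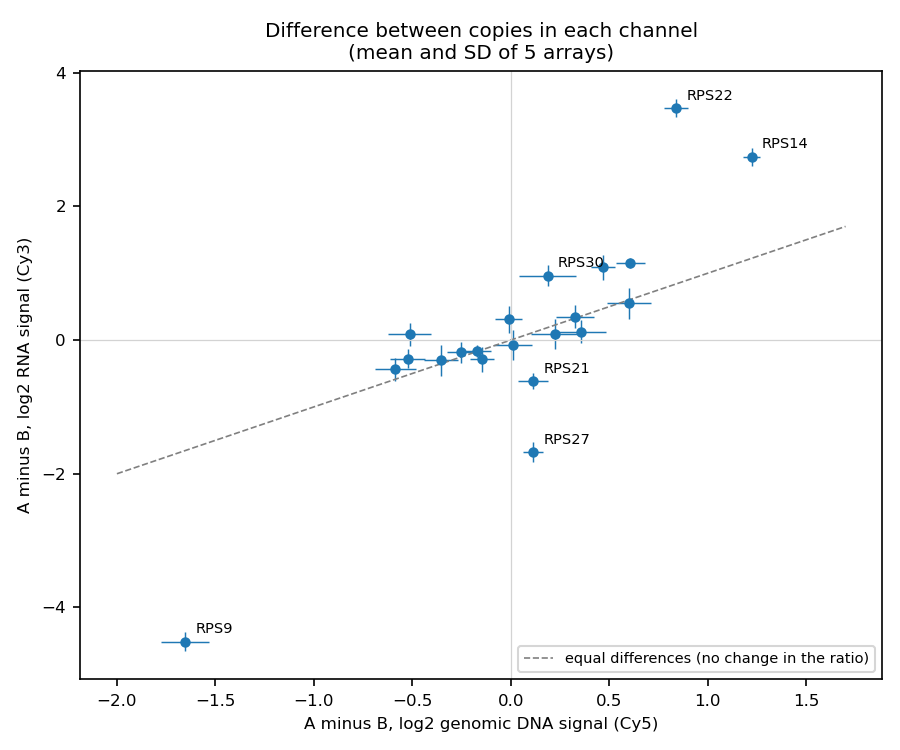
A copy minus B copy in the genomic DNA channel (x axis, log2 Cy5) and in the RNA channel (y axis, log2 Cy3) for 21 of the 24 pairs, as mean and SD of 5 arrays. The dashed line marks equal differences, and RPS9, RPS22 and RPS14 lie away from 0 on both axes while RPS27 does so mainly in RNA.

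The direction of many differences depended on the processing. It was kept in 16 of the 24 pairs under loess, in 15 with the RNA signal alone and in 14 with processed signals. Under each of the other alternatives it was kept in 19 to 24. RPS27, RPS21, RPS24 and RPS16 kept their direction under all 18 alternatives that reprocessed the signals or left out arrays. Of these, RPS16 did not pass the test, and its sign held on 3 of 5 arrays. The RPS24 difference was 0.08 with the quantile-normalized RNA signal alone. The B copy of RPS27 stayed higher by 0.91 log2 under loess and by 0.95 with processed signals. RPS9 and RPS14 kept their direction under 16 of the 18, and turned around under loess and with processed signals. RPS9A was then the higher copy by 1.06 and 1.15, and RPS14A fell below RPS14B, at -0.75 and -1.02. The RPS22 difference shrank to 0.018 under loess and was -0.16 with processed signals. Loess removes any trend of the ratio with brightness, which may include expression. Over all genes, the span from the 5th to the 95th percentile was 7.10 log2 with the background-subtracted ratios. It narrowed to 2.89 under loess and to 3.50 with processed signals. Why the pair differences turned in these 2 settings was not tested. In the authors' deposited table, after the same quantile normalization, the 4 differences stood at -2.81 (RPS9), 2.63 (RPS22), -1.80 (RPS27) and 1.53 (RPS14), A minus B. That table is no independent check. On each array 82.1% to 91.7% of its values matched, within 0.001, the median over spots of the same ratio without background subtraction.

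**Figure D4:**
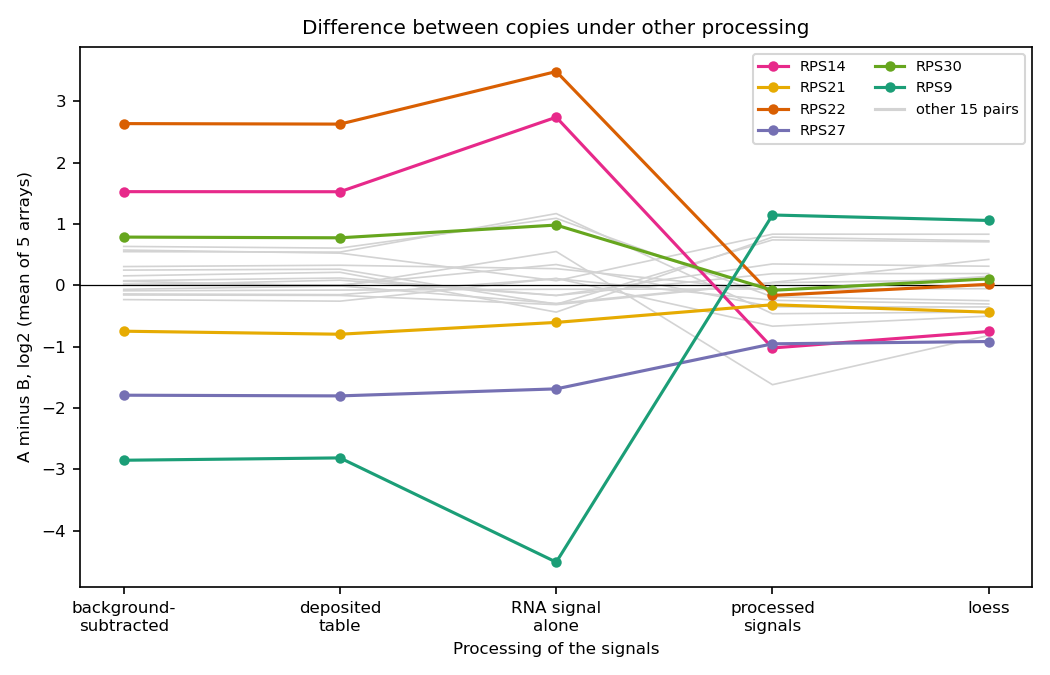
A copy minus B copy (y axis, log2, mean of 5 arrays) for 21 of the 24 pairs under 5 ways of processing (x axis), with the 6 largest pairs in colour. RPS27 and RPS21 stay below 0 throughout, while RPS9 and RPS14 cross 0 with processed signals and loess.

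Since each ribosome carries 1 of each protein, the copies were added per protein. Here the linear ratios of the A and B copies were summed on each array and the log2 of the sum was taken. The 24 sums had a median of 5.80 and ran from 4.70 (RPS9) to 7.06 (RPS10), with an SD over proteins of 0.50 log2, while the 48 single copies had an SD of 0.78. The 8 genes without a suffix lay inside the range of the sums, and their median of 5.36 lay toward its lower end. The lowest sums were those of RPS9 at 4.70 ± 0.13 and RPS14 at 5.01 ± 0.11 (SD, n = 5), and RPS2 and RPS3 lay beside them. RPS22, with 1 low copy, summed to 5.52 ± 0.06, and RPS4, whose B copy was higher by 0.23, to 5.51 ± 0.09. The median of the sums minus that of the 8 genes was 0.44, ranging from 0.026 with the RNA signal alone to 1.09 with processed signals. The higher copy supplied 87.8 ± 0.75% of the sum for RPS9 (RPS9B), 86.2 ± 0.16% for RPS22 (RPS22A), 77.5 ± 1.57% for RPS27 (RPS27B) and 74.2 ± 1.77% for RPS14 (RPS14A). Under loess and with processed signals, RPS9B supplied 32.4% and 31.1%, RPS22A 50.3% and 47.2%, RPS27B 65.3% and 65.9%, and RPS14A 37.3% and 33.0%. With the background-subtracted ratios, the higher copy supplied under 60% in 17 of the 24 pairs.

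**Figure D5:**
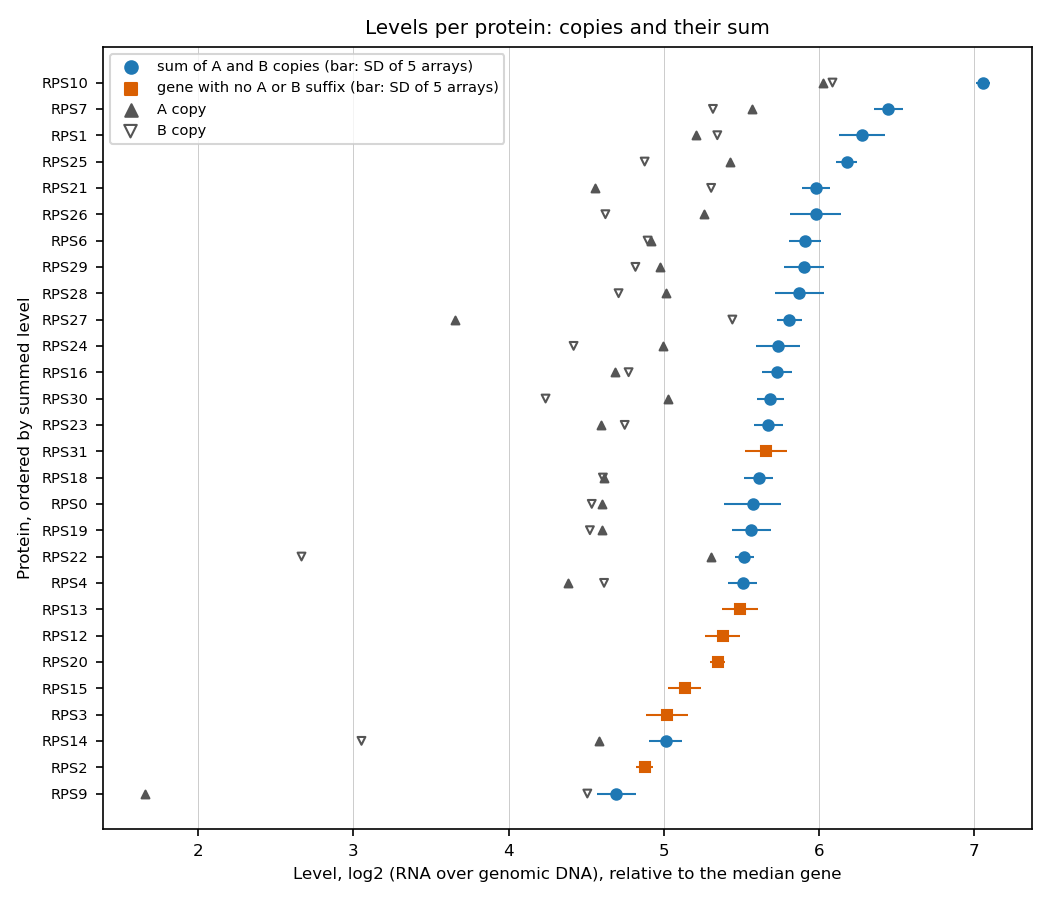
Level of 28 of the 32 proteins (x axis, log2 of RNA over genomic DNA relative to the median gene): the sum of both copies or the gene without a suffix, with the SD of 5 arrays, and the mean of each A and B copy. The sums run from 4.70 for RPS9 to 7.06 for RPS10, and the genes without a suffix that are shown run from 4.88 to 5.66.

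The proteins were also grouped by their place in the subunit. The 22 genes of the head had a median level of 5.02 and a range of 4.52 to 6.09, so all 22 lay above the 95th percentile. The 34 genes of the body and platform had a median of 4.81 and a range of 1.66 to 5.57. All 4 genes of the separate lower end encode body or platform proteins, and RPS10 and RPS31 near the top encode head proteins. The difference of the medians was 0.21 and became -0.09 with the RNA signal alone.

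Genes of related function were read beside these. The scaffold protein gene ASC1, whose product sits on the head and is part of the small subunit under another name, stood at 5.37 ± 0.10 (SD, n = 5). The 5 genes of the P-stalk of the large subunit stood between 4.78 (RPP1B) and 5.26 (RPP0). The 7 genes of the fixed list of factors that bind ribosomal protein promoters or regulate them had a median of 1.05. In it the DNA-bending protein HMO1 stood at 2.26, SFP1 at 1.43, RAP1 at 1.40, IFH1 at 1.05, ABF1 at 0.71, FHL1 at -0.07 and the corepressor CRF1 at -2.59. The 5 dedicated partners of single small subunit proteins lay between 0.89 and 1.68. They were LTV1 (1.68) and YAR1 (1.45), partners of Rps3, TSR2 (1.55) of Rps26, TSR4 (0.89) of Rps2 and FAP7 (0.89) of Rps14. The 29 genes of the mitochondrial small subunit had a median of 0.58, and 0 of them lay above the 95th percentile.

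As a technical check, arrays 4 and 5 were compared with arrays 1 to 3 in limma over all 6256 genes. Of the 56 genes 1 passed an adjusted p of 0.05, and 2.64% of all genes did. With slide as a random block 26 of the 56 passed, as did 2242 of all genes, and the second session holds a single slide. In the fit without that block, the 1 gene called was lower in the second session, and 1.17% of all genes were called lower. This gene was RPS26B (YER131W), which encodes 1 copy of a protein that contacts the mRNA upstream of the start codon. RPS26B read 4.70, 4.93 and 4.74 in the first session and 4.33 and 4.43 in the second, a difference of -0.41 log2 without overlap (limma adjusted p = 0.0478). The call was lost when any of arrays 2, 3, 4 or 5 was left out. In all, 47 of the 56 genes read lower in the second session, with a median difference of -0.13 log2, while 51.3% of all genes did. With median centring in place of quantile normalization 7 of the 56 and 37.4% of all genes read lower, so this shift has no settled direction. The largest SDs between arrays were those of RPS0A (0.27), RPS26B (0.24) and RPS19A (0.20), the median SD of the 56 was 0.11 and that of all genes 0.08. With limma, 0 of the 24 pair differences changed between sessions (lowest adjusted p = 0.225), and 4 had an unadjusted p under 0.05.

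By their systematic names the 56 genes lie on 14 chromosomes, and the 2 copies of a pair lie on different chromosomes in all 24 pairs. In the RefSeq order of protein-coding genes, 8 of the 56 sit next to another gene for a cytoplasmic ribosomal protein. RPS14B and RPS22A are neighbours, and they carried the low copy of one pair (3.05 ± 0.03) and the high copy of the other (5.30 ± 0.06). RPS16A lies beside RPL13B and RPS16B beside RPL13A, and RPS19B lies beside RPL18B. RPS9B lies beside RPL21A, RPS15 beside RPP2A, and RPS22A also beside RPL39.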

How the data were processed

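The authors deposited 5 scanner files, which give the intensity of each spot in both channels and its flags, and 1 table of processed log2 ratios (Cy3 over Cy5). The scanner files came from Agilent Feature Extraction 10.1.1.1, as their headers state. The deposited table was not centred, since its column medians were -3.01 to -2.57. Each spot's median signal was corrected by subtracting its local background median. Control spots, outlier-flagged spots (1.41% to 3.81% of gene spots) and spots at or below background were left out. Spots of a probe were averaged, and quantile normalization between arrays followed in R 4.3.3 (limma 3.58.1). A gene was called well above background in a channel where at least 50% of its spots carried that mark. Array names were checked by systematic name against RefSeq R64, which held 5756 of 6256. No coordinates are given, since no source used here names the build of the array design. Probe, promoter and protein sequences were not analysed here. Differences were fitted with limma's lmFit and eBayes, and the scripts were tested on simulated data. The alternatives covered background, normalization, reference channel, spot filters, spot summary, arrays left out, sessions and blocks. Members and lists were chosen with earlier results of these data known. A few genes are not reported here one by one and are left out of the plots, but they are counted in the totals. Genes named otherwise are the 5 highest and 5 lowest, those without a suffix, the 6 largest and 4 smallest pair differences, the 3 largest SDs, session calls and the short lists. The other pairs were added after their values were seen.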

Additional observations from a re-analysis of the deposited data

How the results depend on the processing

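The number of small subunit pairs called by limma stayed between 14 and 20 of 24 under other processing and between 12 and 15 with 1 array left out. Over all 61 pairs the matching counts were 41 to 51 and 39 to 44. The highest small subunit count came with processed signals, where 51 of the 61 were called. Of the 16 calls, 12 were kept whichever array was left out. The number called was 15 with session as a fixed block and 14 with slide as a random block. The set median was 4.20 with normexp, 0.37 under loess, 0.64 with processed signals, 5.93 with Cy3 alone and 5.02 in the second session alone. It ranged from 4.86 to 4.97 with 1 array left out. The median difference from large subunit genes was -0.085 with normexp and 0.021 under loess. Under loess 1 pair, RPS9, exceeded 1 log2.

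Of the 56 genes, the number called between sessions by limma was 0 without background subtraction, with normexp, median centring, loess, the authors' table, Cy3 alone or flagged spots kept. It was 2 both with processed signals and with the mean Cy5 as divisor, where 134 and 131 of all 6256 genes were called. Dropping every spot not well above background gave 6, beside 2219 of all genes. Slide as a random block gave 26, beside 2242 of all genes. Leaving out 1 of arrays 1 to 3 gave 0 to 2. In the settings with 0 calls and all 5 arrays, between 6 and 12 of the 56 had an unadjusted p under 0.05.

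Among the 6 largest and 4 smallest pair differences (A minus B), those that changed sign and passed the test before or after were, under loess, RPS9 (1.06), RPS14 (-0.75) and RPS6 (-0.35). With processed signals they were RPS9 (1.15), RPS22 (-0.16), RPS14 (-1.02), RPS30 (-0.080) and RPS6 (-0.35). With Cy3 alone they were RPS0 (-0.29), RPS10 (0.55) and RPS18 (-0.16). Under loess 18 of the 56 genes fell below the median gene, RPS4A lowest at -1.02, and with processed signals 12, RPS4A lowest at -0.89. Of the genes named by rule, those below it under loess were RPS27A (-0.37), RPS14B (-0.0017), RPS15 (-0.27), RPS3 (-0.11), RPS2 (-0.58), RPS14A (-0.75), RPS6A (-0.55), RPS9B (-0.57), RPS0B (-0.073), RPS6B (-0.20) and RPS18B (-0.15). With processed signals they were RPS27A (-0.14), RPS15 (-0.030), RPS2 (-0.34), RPS14A (-0.57), RPS6A (-0.36), RPS9B (-0.31) and RPS6B (-0.011). The causes were not tested. Choosing members by RefSeq symbol changed nothing, since it gives the same 56 genes. No paired analysis was possible because all arrays belong to 1 group, so array numbers pair nothing, and A and B copies are compared within each array already. The levels, order and shares of single genes under other processing and the comparison of pair differences between sessions were alternatives chosen after seeing the data.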
